A study of Mus musculus with 840 samples.

Results

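*Dclk1*, *Nebl* and *Sdc1* are 3 of the 39154 genes in the deposited count tables. They were chosen from measured values, namely their reads in luminal cells that carried an activated Notch1 allele, in wild-type luminal cells and in mutant basal cells. Luminal cells of both GFP classes and basal GFP+ cells thus took part in the choice, and the levels of the 3 genes in every comparison with these groups are described below without a test. Tests of the 3 genes are given only between GFP+ and GFP- cells of the intermediate gate. Their p-values are not independent of earlier results of these data. The study had named *Nebl* and *Sdc1* for their course from basal to luminal cells, intermediate cells included. It had named *Dclk1* for its difference between mutant and wild-type luminal cells. Single epithelial cells of the mouse mammary gland had been index-sorted into plates and sequenced by Smart-seq2, a full-length method that amplifies the cDNA of each cell. All mice carried Rosa-N1ICD-IRES-nGFP, an allele that makes the intracellular part of mouse Notch1 together with nuclear GFP once Cre has acted on it, and either SMACreERT2 or K5CreERT2. Both Cre lines are driven by promoters of basal cells and are switched on by tamoxifen, which was given at postnatal day 21. GFP+ cells are recombined cells, and GFP- cells are cells of the same mice without recombination. Cells were gated as basal, intermediate or luminal by EpCAM and CD49f after CD45+, Ter119+ and CD31+ cells had been set aside. SMACre mice were taken 1 week (plate 1), 3 weeks (plates 2, 3 and E), 4 weeks (plate 4) or 6 weeks (plate 5) after tamoxifen. K5Cre mice were taken at 3 weeks (plates G and L), and the sample names of plate L state 6 weeks, so that its chase is uncertain. Every plate held cells of its own 1 or 2 mice, and all K5Cre cells belong to sequencing batch 3. The only SMACre plate of that batch, plate E, held no luminal or basal GFP+ cells, so that in these groups Cre line and batch cannot be told apart.

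*Dclk1* encodes doublecortin-like kinase, a microtubule-binding protein kinase that is a known marker of tuft cells in the gut. *Nebl* encodes nebulette, an actin-binding protein of the nebulin family that anchors filaments at Z-discs and focal adhesions, and a short form of it is made outside muscle. *Sdc1* encodes syndecan, a transmembrane proteoglycan whose heparan sulfate chains bind growth factors and matrix, and which is common on epithelial cells and plasma cells. Basal cells of the mammary gland are contractile and rich in cytoskeletal proteins, and luminal cells line the lumen and divide into hormone receptor positive (HR+) and negative (HR-) lineages. Active Notch1 joins the DNA-binding protein RBPJ and drives basal cells of this gland toward the luminal HR- fate.

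In build GRCm38, *Dclk1* (ENSMUSG00000027797) lies at chr3:55242364-55539068 on the + strand with 15296 exonic bases. *Nebl* (ENSMUSG00000053702) lies at chr2:17343909-17731464 on the - strand with 15235 exonic bases. *Sdc1* (ENSMUSG00000020592) lies at chr12:8771323-8793715 on the + strand with 3809 exonic bases. The libraries do not keep the strand, and 6 annotated genes overlap *Dclk1* and 2 overlap *Nebl*, so that reads in the shared stretches cannot be assigned with certainty. In the kept cells the genes overlapping *Dclk1* held 8293 reads beside 61378 on *Dclk1* itself. Those overlapping *Nebl* held 0.717% as many reads as the 28042 of *Nebl*, and no gene overlaps *Sdc1*.

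Since all mutant cells carry the active form of a receptor that works through RBPJ, the stretches before the gene starts were searched for its core motif, TGGGAA, on both strands in the 250 bases before each RefSeq start in GRCm38.p6. The motif is in capitals in the sequences that follow, each written on the strand of its gene. Of 2 *Dclk1* windows, 1 held it, before the first start at chr3:55242131-55242136. Of 4 *Nebl* windows, 1 held it, 92 bases ahead of a start inside the gene. The *Sdc1* window held none, and is printed up to the annotated start.

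Dclk1, chr3:55242114-55242363, + strand: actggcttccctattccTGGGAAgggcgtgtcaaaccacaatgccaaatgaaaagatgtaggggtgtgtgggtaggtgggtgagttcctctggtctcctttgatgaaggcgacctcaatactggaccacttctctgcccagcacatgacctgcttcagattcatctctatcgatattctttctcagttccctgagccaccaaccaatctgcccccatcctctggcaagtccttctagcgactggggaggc
Nebl, chr2:17526131-17526380, - strand: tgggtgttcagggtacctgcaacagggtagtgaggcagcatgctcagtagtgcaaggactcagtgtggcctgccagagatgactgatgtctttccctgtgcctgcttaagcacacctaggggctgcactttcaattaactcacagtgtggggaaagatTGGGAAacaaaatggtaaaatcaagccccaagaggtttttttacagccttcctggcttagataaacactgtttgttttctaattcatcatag
Sdc1, chr12:8771146-8771322, + strand: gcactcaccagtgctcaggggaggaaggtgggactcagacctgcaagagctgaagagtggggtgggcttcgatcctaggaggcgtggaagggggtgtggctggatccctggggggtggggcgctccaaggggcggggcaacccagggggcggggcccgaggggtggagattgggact

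Of all 32851 mouse windows of this length, 7094 (21.59%) held TGGGAA, so that a match is common. The longer form GTGGGAA was in 5.42% of the windows and in none of those of the 3 genes.

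After quality control 68.7% of 744 cells remained, 120 of them luminal GFP+ and 39 luminal GFP-. They held 103081 to 3363298 reads on genes, with a median of 652124. The median was 361346 reads in luminal GFP+ cells and 632006 in luminal GFP- cells over all plates, but within plates the GFP+ cells were the deeper ones on 3 of 6 (5, G and L). Levels are given as CPM, counts of a gene scaled by all reads on genes, after summing the cells of a group on a plate where at least 3 were kept, and the mean ± SD is taken over plates. Luminal GFP+ cells gave such sums on 6 plates (1, 3, 4, 5, G and L) with 5 to 51 cells each, and luminal GFP- cells on 7 plates with 3 to 7 cells each. At so few cells a single cell can decide a sum. The share of the leading cell is stated for some sums, and others given without it may also rest on 1 cell.

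The gates were checked against their markers. The keratins *Krt8* and *Krt18* of luminal cells were higher in luminal than in basal GFP+ cells on 5 of 5 plates, as were the HR- genes *Kit* and *Elf5*. In luminal GFP+ cells the basal keratin *Krt5* was 17.5 ± 28.6 CPM (SD, n = 6 plates) against 713 ± 447 CPM (n = 5) in basal GFP+ cells. The summed level of 10 basal markers was 76.9 to 1932 CPM in luminal GFP+ cells and 3571 to 22724 CPM in basal GFP+ cells, without overlap. Luminal GFP- cells had 17.99 to 294.4 CPM of these markers on all plates but L, where 6 cells labelled luminal GFP- summed to 2155 CPM. An appendix of the study gives the numbers of sorted luminal and intermediate GFP+ cells on plates 1, 2, 3 and 4 the other way round (on plate 4 nearly so), and if the labels were exchanged, the values of these groups would change places there. By the deposited labels, used here, the 10 luminal markers summed to 8638, 18641 and 16298 CPM in luminal and 2916, 2753 and 1514 CPM in intermediate GFP+ cells of plates 1, 3 and 4. The basal markers had the opposite order, with 1308, 354.1 and 1932 CPM in luminal and 3120, 14711 and 16603 CPM in intermediate GFP+ cells. Plates G and L, where both sources give the same numbers, had these orders too. Reads of *Notch1* include those of the N1ICD allele, which cannot be told apart from the native gene. *Notch1* was 442 ± 259.2 CPM (n = 6) in luminal GFP+ and 277.9 ± 163.8 CPM (n = 7) in luminal GFP- cells, and higher in the GFP+ cells on 4 of the 6 plates with both, so that the GFP label was not borne out by *Notch1* reads on the other 2.

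*Dclk1* was higher in mutant than in wild-type luminal cells on every plate with both, and the share of mutant cells that held it was uneven between plates. Its level in luminal GFP+ cells ranged from 58.9 CPM (plate L) through a median of 190.3 CPM to 349 CPM (plate 3). In luminal GFP- cells it ranged from 0 (plates 5 and L) through a median of 15.6 CPM to 120.2 CPM (plate 3). All but 1 of the luminal GFP- plates lay below all of the luminal GFP+ plates, the exception being plate 3, where 1 of 3 cells held 98.8% of the *Dclk1* reads. The means were 197.7 ± 114.2 CPM (n = 6) and 26.9 ± 42.9 CPM (n = 7). Within plates, the GFP+ cells had the higher level on 6 of 6, and so in each of the 3 batches. On the 4 plates where GFP- cells had reads the ratio ran from 2.90 (plate 3) to 87.6 (plate G). On plates 5 and L they had none, and no ratio is given, because a repeat run of plate 5 that was otherwise left out found 5 reads of *Dclk1* in 3 of the same 7 GFP- cells (4.03 CPM). On the log2(CPM + 1) scale the difference was 4.47 ± 2.42 (n = 6 plates). Of all 10929 genes that could be compared, 3.03% were higher in the GFP+ cells on all 6 plates, which is given for scale only, since this contrast chose the gene. By edgeR 0% of the genes passed an adjusted p of 0.05 in this contrast, 3.99% had an unadjusted p under 0.05, and DESeq2 called 2.14%.

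A read of *Dclk1* was found in 92 luminal GFP+ cells of these 6 plates (77.97%, 95% CI 69.4 to 85.1, exact Clopper-Pearson, counting error only) and in 10 of 39 luminal GFP- cells (25.6%, CI 13.04 to 42.1). After thinning every cell to 100000 reads these shares were 75.4% and 20.5%. Among thinned GFP+ cells *Dclk1* was in 10 of 11 (plate 3), 43 of 51 (plate 4) and 30 of 37 (plate 5), but in 2 of 8 (plate 1), 2 of 6 (plate G) and 2 of 5 (plate L), so that the pooled share rests on the first 3 of these plates. The share was higher in GFP+ cells on 4 of 6 plates without thinning and on 5 of 6 plates after it. The exception after thinning was plate 1, where the sum of 8 mutant cells had 100.3 CPM but 1 cell gave 95.7% of it. On plate G, 1 of 6 cells gave 80.3%. Without the cell with the most *Dclk1* reads on each plate, the GFP+ cells were still above the GFP- cells on 5 of 6 plates.

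**Figure D1:**
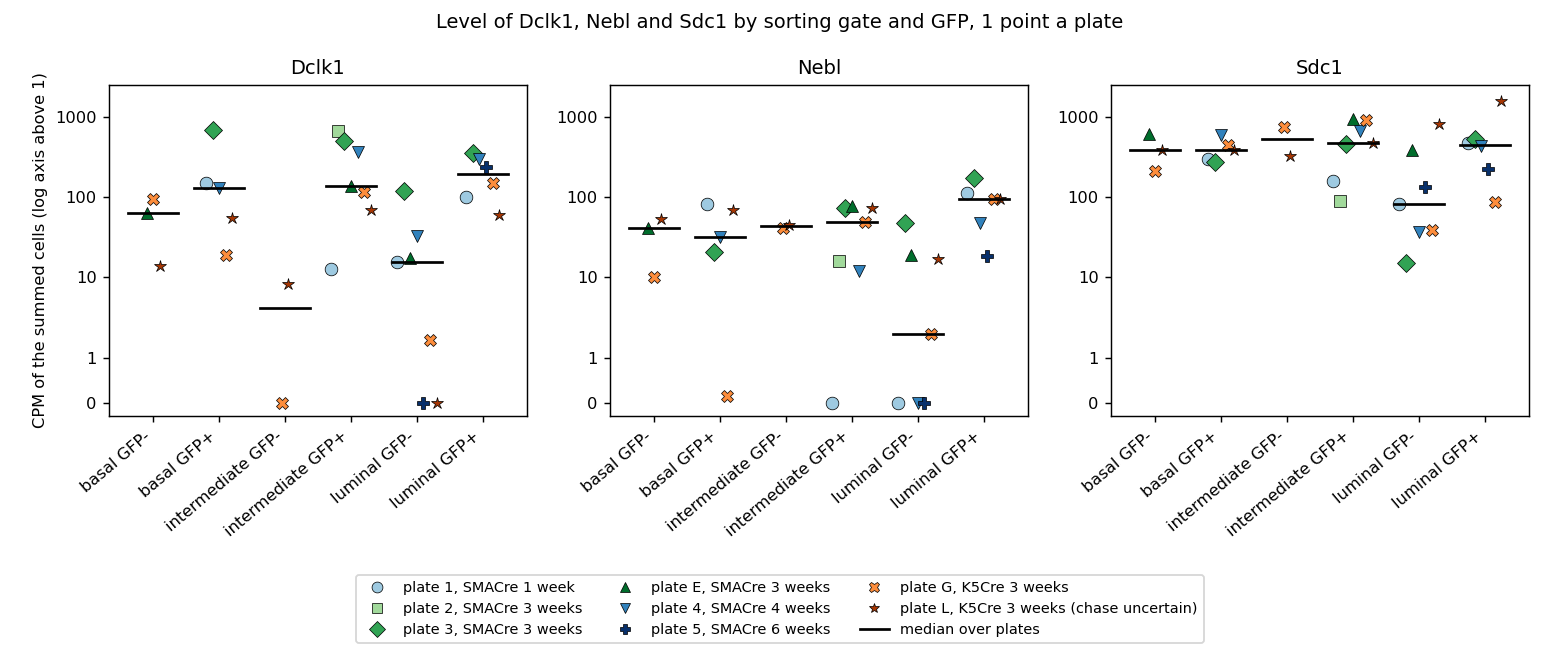
Level of *Dclk1*, *Nebl* and *Sdc1* (CPM of the summed cells, logarithmic above 1) in each gate and GFP class, with 1 point per plate and a line at the median over plates. *Dclk1* has a median of 190.3 CPM in luminal GFP+ cells and 15.6 CPM in luminal GFP- cells, and its spread in luminal GFP+ cells lies inside that of basal GFP+ cells.

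In basal GFP+ cells, the mutant cells sorted in the basal gate, *Dclk1* stood at 149.005 CPM on plate 1, 680.4 CPM on plate 3, 130.4 CPM on plate 4, 19.2 CPM on plate G and 54.1 CPM on plate L. These values enclosed those of luminal GFP+ cells. Luminal GFP+ cells were higher on 3 of 5 plates and lower on 2, with a mean difference of 0.53 ± 1.55 on the log2(CPM + 1) scale. In this contrast edgeR called 0.562% of 12091 genes (26 higher and 42 lower in luminal cells). The contractile genes *Acta2* and *Cnn1* were lower in the luminal cells by edgeR (log2 fold change -6.07 ± 0.98 SE, adjusted p = 0.0483, and -7.00 ± 0.94, adjusted p = 0.031). The basal keratin *Krt14* was also lower, 182.7 against 3679 CPM (-5.20 ± 0.83, edgeR adjusted p = 0.0473). These basal genes were named because they passed this test in a list of 10 basal markers, of which 3 were lower and none higher. When a plate was left out, edgeR called between 0.0407% and 0.361% of the genes.

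*Dclk1* in the unrecombined cells was also measured, on the 3 plates that held both basal and luminal GFP- cells. Basal GFP- cells had 62.8 CPM on plate E, 95.6 CPM on plate G and 13.8 CPM on plate L. Luminal GFP- cells had 17.7, 1.69 and 0 CPM on the same plates, lower on 3 of 3, although the ranges overlapped. The log2 fold change was -4.97 ± 1.75 (SE), and it was -2.92 without the plate as a block and between -6.75 and -3.64 when a plate was left out. Of the 12040 genes tested edgeR called 0.249%, and 23.6% were lower on all 3 plates. Among list genes, the contractile genes *Mylk* and *Cnn1* and the matrix gene *Sparc* were lower in the luminal GFP- cells, and *Krt18*, *Ltf*, *Csn3*, *Ly6a* and *Notch3* were higher. These calls rest on all 3 plates, since edgeR called between 0% and 0.0486% of the genes when a plate was left out.

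Intermediate GFP+ cells held *Dclk1* at 12.8 CPM on plate 1, where 1 of 4 cells had a read, and between 69.2 and 668 CPM on the other 6 plates, with a median of 135.8 CPM over all 7. Against basal GFP+ cells the log2 fold change was 0.25 ± 0.82, and luminal against intermediate GFP+ cells gave 0.24 ± 0.55, with signs that turn under other settings. Here edgeR called 0% of the genes in either comparison, where 1.48% and 6.86% had an unadjusted p under 0.05 and DESeq2 called 0.486% and 6.67%. By the deposited labels, the intermediate gate of the K5Cre plates also held unrecombined cells, which the appendix of the study does not list. Their *Dclk1* was 0 CPM in 6 cells of plate G and 8.27 CPM in 6 cells of plate L, below the 115.3 and 69.2 CPM of the GFP+ cells of those plates. Under other settings 8.33% to 16.67% of these GFP- cells held a read, so that few cells carry their level. The log2 fold change of 6.03 ± 1.60 had an edgeR adjusted p of 0.641 (unadjusted p = 0.00349). DESeq2 gave an adjusted p of 0.000142, and edgeR without its filter on low counts 1.06e-07, while with RLE scaling, without the block and with all groups in one fit edgeR's adjusted p was 1, 0.361 and 0.984. Over all alternatives the log2 fold change ran from 3.75 to 6.50. In these cells the immune markers summed to 7.56 CPM (plate G) and 481.03 CPM (plate L, led by *Lyz2*) in GFP- and to 91.1 and 16.9 CPM in GFP+ cells. The tuft cell markers summed to 5.53 and 64.7 CPM in GFP- and to 8.48 and 4.07 CPM in GFP+ cells, and the endothelial markers to at most 6.26 CPM in any of these sums. The fibroblast markers summed to 3.27 and 22.45 CPM (*Dcn* in the main) in GFP- and to 47.3 and 22.2 CPM in GFP+ cells. *Col1a1*, *Col1a2* and *Pdgfra* had reads in the GFP+ cells and none in the GFP- cells. The GFP+ sums held 63 (plate G) and 61 cells (plate L) against 6 and 6 GFP- cells, so that rare genes could be missed in the latter. This imbalance also enters the values over all genes of this contrast. Over plates, the 10 luminal markers summed to 5405 to 8206 CPM in intermediate GFP- cells. In intermediate GFP+ cells, over 7 plates, they summed to 1514 to 4727 CPM. For the 10 basal markers these sums were 8149 to 11848 CPM and 3120 to 16603 CPM. The part of other cell types and of this makeup in the levels was not tested. On plates G and L edgeR called 0.132% of 18210 genes, and 33.3% were higher in GFP+ cells on both. The 24 called genes included *Map1b* (272.8 against 2.07 CPM, edgeR adjusted p = 0.0139), which binds microtubules as *Dclk1* does, and *Flnc* (240.8 against 0.559 CPM, edgeR adjusted p = 0.0145), a filamin that crosslinks actin. Both rose in the GFP+ cells, but with RLE scaling, or without the plate as a block, edgeR called 0% of the genes here and these calls were lost. On the same 2 plates, *Dclk1* in basal cells was 36.6 CPM in GFP+ and 54.7 CPM in GFP- cells on average. The plates went opposite ways, with GFP+ cells lower on plate G and higher on plate L (log2 fold change -0.098 ± 1.53). In this comparison edgeR called 0% of the genes, 2.19% had an unadjusted p under 0.05 and DESeq2 called 1.38%.

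*Nebl* was rarer than *Dclk1* and was also higher in the mutant cells of the luminal gate. In luminal GFP+ cells it ranged from 18.4 CPM (plate 5) through a median of 94.7 CPM to 170.2 CPM (plate 3). In luminal GFP- cells it was 0 on plates 1, 4 and 5, with a median of 1.97 CPM and a highest value of 47.6 CPM (plate 3). The means of 89.9 ± 52.8 CPM (n = 6) and 12.2 ± 17.7 CPM (n = 7) lay apart, but the groups overlapped, since the GFP- values of plates 3 and E exceeded the GFP+ value of plate 5, that of plate 3 coming almost wholly (98.5%) from 1 cell. Within plates *Nebl* was higher in GFP+ cells on 6 of 6, by 4.33 ± 1.92 on the log2(CPM + 1) scale, and on 5 of 6 without each plate's leading GFP+ cell. A read was seen in 53 GFP+ cells (44.9%, CI 35.7 to 54.3) and in 8 of 39 GFP- cells (20.5%, CI 9.30 to 36.5). After thinning, these were 38.1% and 15.4%, and the GFP+ share was the higher on 6 of 6 plates. On plates G and L single cells gave 87.9% and 87.5% of the *Nebl* reads of luminal GFP+ cells.

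In basal GFP+ cells *Nebl* was 81.9 CPM on plate 1, 20.9 CPM on plate 3, 32.1 CPM on plate 4, 0.147 CPM on plate G and 69.2 CPM on plate L. It was thus below the luminal GFP+ value of the same plate on 5 of 5, with a difference of 2.17 ± 2.59 on the log2(CPM + 1) scale that plate G dominates. Among all genes of this contrast, 8.32% were higher in luminal GFP+ cells on all 5 plates. Without each plate's leading cell the order held on 3 of 5. Luminal GFP+ cells were also above intermediate GFP+ cells on 5 of 5 plates, 104.2 against 41.4 CPM on average (log2 fold change 1.75 ± 1.07), where 7.5% of the genes were higher on all 5 plates. Unrecombined basal cells of plates E, G and L had 41.3, 10.02 and 53.8 CPM of *Nebl*, and unrecombined luminal cells had 18.9, 1.97 and 17.04 CPM. Luminal cells were lower on 3 of 3 plates (log2 fold change -1.54 ± 0.91). In the intermediate gate of plates G and L, *Nebl* was 41.7 and 45.1 CPM in GFP- cells. In GFP+ cells it was 49.2 and 72.6 CPM, higher on 2 of 2 plates, as were 33.3% of all 18210 genes. The log2 fold change was 0.59 ± 0.58 (edgeR adjusted p = 1), near the median of 0.53 over all genes of this contrast.

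**Figure D2:**
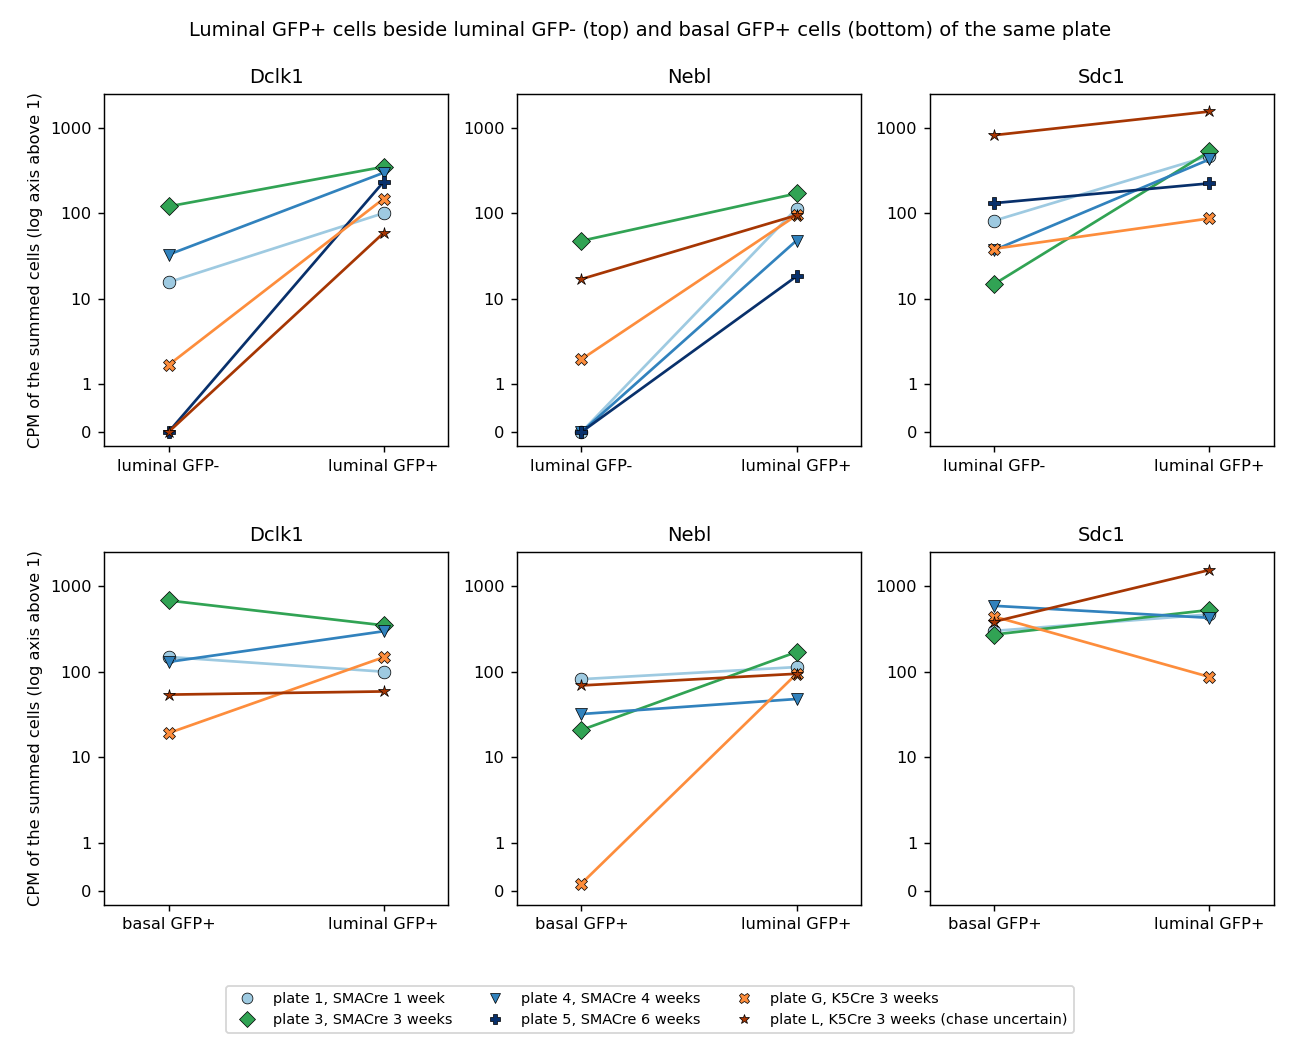
Level of *Dclk1*, *Nebl* and *Sdc1* (CPM of the summed cells, logarithmic above 1) in luminal GFP+ cells beside luminal GFP- cells (top) and basal GFP+ cells (bottom), with lines joining the groups of a plate. All lines of the top row rise, on 6 of 6 plates for each gene, and in the bottom row lines rise on 3 (*Dclk1*), 5 (*Nebl*) and 3 (*Sdc1*) of 5 plates.

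*Sdc1* was detected on every plate of every group. In luminal GFP+ cells it ranged from 87.02 CPM (plate G) through a median of 447 CPM to 1545 CPM (plate L), where 1 of 5 cells gave 79.1% of the reads and the others 422 CPM. In luminal GFP- cells it ranged from 14.9 CPM (plate 3) through 82.1 CPM to 818 CPM (plate L). Both groups thus spanned a wide range and overlapped. Within plates the GFP+ cells were higher on 6 of 6, by 2.31 ± 1.71 on the log2(CPM + 1) scale, from 1.70 times on plate 5 to 35.3 times on plate 3. Without each plate's leading GFP+ cell they were higher on 5 of 6, the exception being plate L. The share of cells with a read was 82.2% (97 cells, CI 74.1 to 88.6) in GFP+ and 69.2% (27 of 39 cells, CI 52.4 to 82.98) in GFP- cells. This difference was not tested, and after thinning the GFP+ share was the higher on 3 of 6 plates.

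Basal GFP+ cells had 300.2 CPM of *Sdc1* on plate 1, 272.5 CPM on plate 3, 589 CPM on plate 4, 441 CPM on plate G and 386 CPM on plate L. Luminal GFP+ cells were above them on 3 of 5 plates, with a difference of 0.16 ± 1.64 on the log2(CPM + 1) scale. Over plates E, G and L, unrecombined basal cells gave 401 ± 197.1 CPM and unrecombined luminal cells 412 CPM (log2 fold change -0.51 ± 0.76), and the luminal gate was the lower on 2 of 3 plates. Intermediate GFP+ cells had the highest share of cells with a read among GFP+ groups, 97.8% (CI 94.8 to 99.3). On plates G and L, intermediate GFP+ cells were above intermediate GFP- cells on 2 of 2 plates, although the ranges overlapped (688.3 against 532.8 CPM on average, log2 fold change 0.55 ± 0.51, edgeR adjusted p = 1). This fold change lay near the median of 0.53 over all 18210 genes, of which 33.3% were higher in GFP+ cells on both plates. Per kilobase of exon, luminal GFP+ cells held 12.9 ± 7.47 CPM of *Dclk1*, 5.90 ± 3.46 CPM of *Nebl* and 143.4 ± 135.6 CPM of *Sdc1*. By these means *Sdc1* was the most abundant of the 3 and *Nebl* the least, although *Nebl* was above *Dclk1* on plates 1 and L.

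By chase, the *Dclk1* level of luminal GFP+ cells in SMACre mice was 100.3 CPM at 1 week, 349 CPM at 3 weeks, 297.4 CPM at 4 weeks and 232.8 CPM at 6 weeks. At 6 weeks 30 of 37 cells (81.1%) still had a read, on the plate where none of 7 GFP- cells had one in this run and where the basal markers of the GFP+ cells were lowest (76.9 CPM). *Nebl* was 113.5 CPM at 1 week, 170.2 CPM at 3 weeks, 48.1 CPM at 4 weeks and 18.4 CPM at 6 weeks. *Sdc1* was 468, 527, 427 and 223.6 CPM at these times. Each time is 1 plate of 1 or 2 mice, so that time, plate and mouse cannot be told apart and no test was made. In K5Cre mice *Dclk1* was 147.8 and 58.9 CPM on plates G and L. Without thinning 2 of 6 and 4 of 5 cells held a read there, and after thinning 2 of 6 and 2 of 5. The summed basal markers moved with *Dclk1* in no common order: they were 1308 CPM on plate 1, 354.1 CPM on plate 3, 1932 CPM on plate 4, 156.8 CPM on plate G and 1293 CPM on plate L. The most abundant basal marker in these cells was *Krt17* on 5 of 6 plates.

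**Figure D3:**
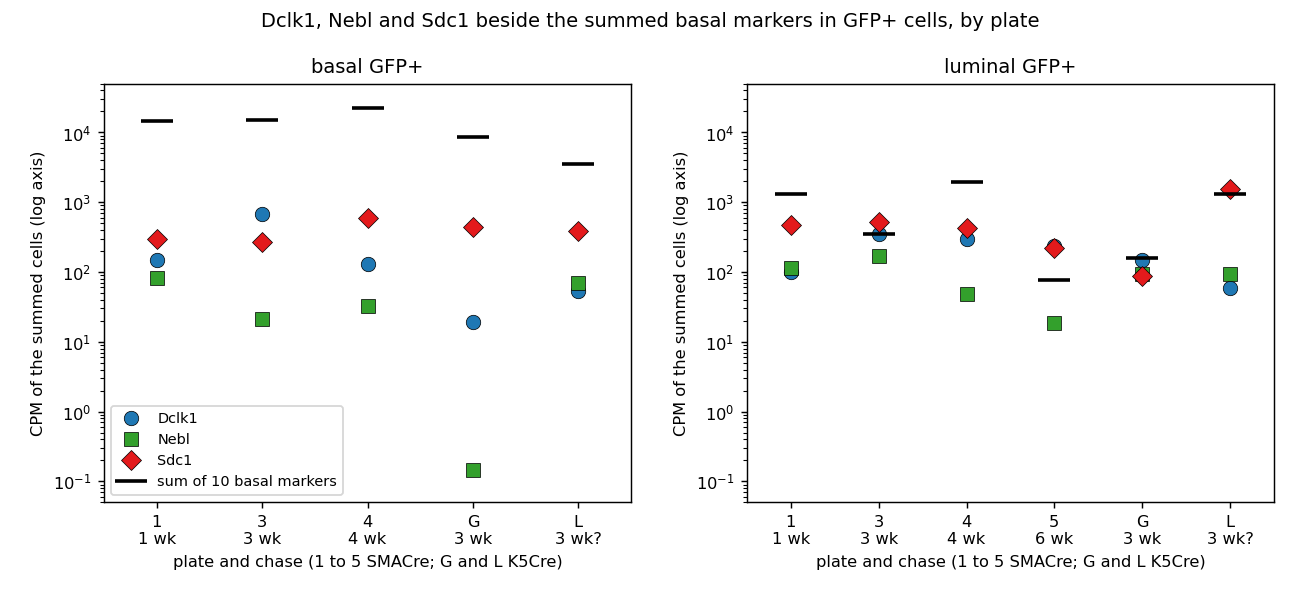
Level of the 3 genes and of the sum of 10 basal markers (CPM of the summed cells, logarithmic axis) in basal GFP+ cells (left) and luminal GFP+ cells (right) on each plate, labelled with the weeks after tamoxifen. The basal marker sum is 3571 to 22724 CPM in basal GFP+ cells and 76.9 to 1932 CPM in luminal GFP+ cells, while *Dclk1* spans 19.2 to 680.4 CPM and 58.9 to 349 CPM in the same cells.

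At the level of single cells, *Dclk1* was at 100 CPM or more in 66 luminal GFP+ cells (55.9%) and in 3 of 39 luminal GFP- cells (7.69%). *Nebl* reached this level in 21 (17.8%) and 1 (2.56%) of them. *Sdc1* reached it in 73 (61.9%) and 13 (33.3%). Among the cells with a read, the median *Dclk1* level was 245.8 CPM in GFP+ and 42.1 CPM in GFP- cells. The 10 positive GFP- cells were thus also weaker, and 3 of them reached 100 CPM. These shares pool cells without thinning and were not tested. The plates enter unevenly, with 51 of the GFP+ cells from plate 4 and 37 from plate 5.

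**Figure D4:**
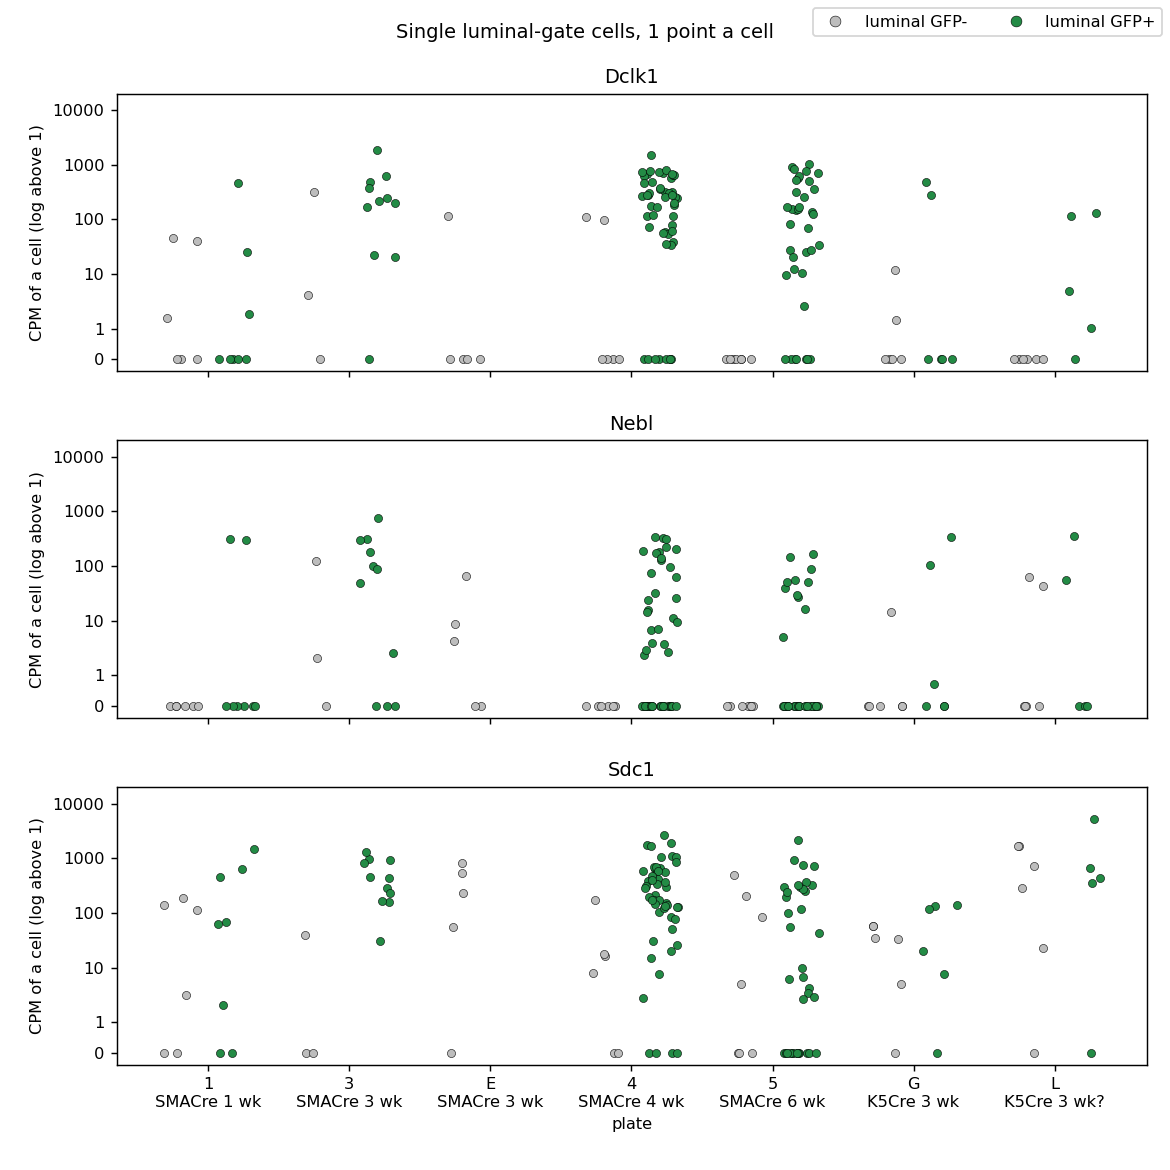
Level of *Dclk1*, *Nebl* and *Sdc1* (CPM of a cell, logarithmic above 1) in every luminal GFP+ and luminal GFP- cell by plate, with 1 point per cell. For *Dclk1*, 66 GFP+ cells (55.9%) and 3 GFP- cells (7.69%) lie at 100 CPM or above.

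After thinning, 34 of all 120 luminal GFP+ cells held reads of all 3 genes (28.3%, CI 20.5 to 37.3), 46 of 2 of them, 31 of 1 and 9 of none. *Nebl* was found in 41 of 90 cells with *Dclk1* (45.6%, CI 35.02 to 56.4) and in 4 of 30 without it (13.3%, CI 3.76 to 30.7). *Sdc1* was found in 69 of 90 cells with *Dclk1* (76.7%) and in 21 of 30 without it. The HR- gene *Kit* was detected in 86 of 90 cells with *Dclk1* (95.6%) and 18 of 30 without it, and the HR- gene *Elf5* in 62 of 90 (68.9%) and 16 of 30 (53.3%). Of the Notch targets, *Hey1* was in 44 of 90 (48.9%) and 7 of 30 (23.3%), *Heyl* in 24 of 90 (26.7%) and 6 of 30 (20%), and *Hes1* in 62 of 90 (68.9%) and 21 of 30 (70%). The estrogen receptor gene *Esr1* was in 9 of 90 (10%) and 10 of 30 (33.3%), and the progesterone receptor gene *Pgr* in 25 of 90 (27.8%) and 11 of 30 (36.7%). Of the basal genes, *Krt14* was in 29 of 90 (32.2%) and 11 of 30 (36.7%) and *Acta2* in 23 of 90 (25.6%) and 9 of 30. Split by *Nebl*, *Krt14* was in 21 of 45 cells with *Nebl* (46.7%) and 19 of 75 without it (25.3%), and *Acta2* in 12 of 45 (26.7%) and 20 of 75 (26.7%). Split by *Sdc1*, *Krt14* was in 27 of 90 (30%) and 13 of 30 (43.3%), and *Acta2* in 21 of 90 (23.3%) and 11 of 30 (36.7%). These shares pool cells of 7 plates that share mice and libraries, and no test was made of them.

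Luminal cells were also divided by whether HR- or HR+ markers had the larger sum in the cell. Of the luminal GFP+ cells 110 of 120 fell on the HR- side, and of the luminal GFP- cells 25 of 39, so that the GFP classes differed in this makeup. Within the HR- side, after thinning, *Dclk1* was detected in 88 of 110 GFP+ cells (80%, CI 71.3 to 87.02) and in 7 of 25 GFP- cells (28%, CI 12.1 to 49.4). On the HR+ side it was detected in 2 of 10 and 1 of 14, and the shares that follow are of thinned cells too. *Nebl* was detected in 44 of 110 GFP+ (40%) and 4 of 25 GFP- cells (16%) of the HR- side. *Sdc1* was detected in 82 of 110 GFP+ (74.5%) and 12 of 25 GFP- cells (48%) of the HR- side, but in 14 of 14 GFP- cells of the HR+ side. In luminal GFP- cells the share of *Sdc1* was thus higher on the HR+ side and that of *Dclk1* on the HR- side. For *Dclk1* this rests on few cells, and the interval of the HR+ side (0.18 to 33.9%) overlaps that of the HR- side. Neither difference was tested.

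The relatives of the 3 genes did not share one pattern. Of the doublecortin family, *Dcx* and *Dclk3* had no reads in either luminal group. *Dclk2* was 1.42 ± 1.75 CPM in luminal GFP+ and 7.71 ± 17.5 CPM in luminal GFP- cells on the 6 plates with both. It was higher in GFP+ cells on 4 of these 6 plates. Of the nebulin family, *Nrap* had no reads and *Neb* was at 5.74 and 2.27 CPM. *Lasp1*, which encodes a small nebulin relative at focal adhesions, was about equal in the luminal groups (156.6 and 158.7 CPM, higher in GFP+ cells on 3 of 6 plates). Among the unrecombined cells *Lasp1* was higher in luminal than in basal cells on 3 of 3 plates (316 against 46.3 CPM, edgeR adjusted p = 0.138), the opposite order to that of *Nebl*. Among the syndecans, *Sdc3* was higher in luminal GFP+ cells on 6 of 6 plates (42.5 against 7.61 CPM, log2 fold change 2.64 ± 1.10, edgeR adjusted p = 1). *Sdc2* was higher on 5 of 6 (34.9 against 30.2 CPM) and *Sdc4* on 3 of 6 (719.9 against 820.4 CPM).

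No gene of the lists below was called by edgeR between luminal GFP+ and luminal GFP- cells, where the median log2 fold change of all genes was 0.27. The median was 0.30 over the 9 tested of 14 doublecortin relatives and microtubule-binding proteins, and 0.19 over 13 of 18 nebulin relatives and their actin-anchoring partners. It was -0.17 over 8 of 10 other heparan sulfate proteoglycans, and 0.34 over 15 of 19 genes for syndecan partners and the synthesis and shedding of heparan sulfate. The genes that the study listed with *Sdc1* and *Nebl* for early intermediate cells had a median of 1.30 over 14 of 15 tested, and as that list was drawn from these cells it is no independent evidence. The 6 Notch receptors and targets had a median of 0.46, all 6 above 0, as were 64.3% of all genes tested. Of 10 basal markers 5 could be tested, with a median of 2.29 that is the value of *Krt14* (± 2.66 SE), although *Krt14* was higher on only 3 of 6 plates and averaged 153.1 CPM in GFP+ and 161.7 CPM in GFP- cells. *Krt17* averaged 489.1 and 133.6 CPM, higher on 6 of 6 plates, and *Krt5*, which did not pass the filter on low counts, 17.5 and 83.2 CPM. Between luminal and basal GFP+ cells the medians of the first 4 lists were -0.12, -0.30, -0.74 and 0.12, beside -0.04 for all genes, and none of their genes was called. The called list genes there were luminal or basal markers: besides the 3 basal genes above, *Krt8*, *Krt18* and *Epcam* and the HR- genes *Kit*, *Elf5*, *Aldh1a3* and *Ltf* rose in the luminal cells. Their log2 fold changes ran from 1.90 (*Epcam*, which is also a gating antigen) to 10.99 (*Aldh1a3*).

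Marker lists of other cell types that express these genes were measured in the luminal groups, and their part in the levels was not tested beyond the values given. For tuft cells, 11 markers summed to 0.19 to 16.8 CPM in luminal GFP+ cells and 0 to 38.8 CPM in luminal GFP- cells, with 7 of 11 at 0 on all GFP+ plates and *Avil* the most abundant by the median over plates. The plasma cell list summed to 110.5 to 303.7 CPM in GFP+ and 223.6 to 519 CPM in GFP- cells, almost all of it *Xbp1*, and the immunoglobulin genes *Ighm* and *Igkc* were at 0 on all plates of both groups. The striated muscle list summed to 0.77 to 41.6 CPM in GFP+ and 0 to 106.7 CPM in GFP- cells, led by *Ttn* by the median over plates, and *Myh1* and *Actn2* were at 0. The neuron and Schwann cell list summed to 81.2 to 276.8 CPM and 1.72 to 346 CPM, led by *Sox10*, which mammary epithelium also expresses, and *Dcx* and *Stmn2* were at 0. Fibroblast markers summed to 0 to 6.75 CPM in GFP+ and 0 to 138.7 CPM in GFP- cells. Endothelial markers summed to 0.19 to 15.2 CPM and 0 to 209.7 CPM, and immune markers to 2.96 to 26.4 CPM and 0 to 26.3 CPM. Salivary gland markers were highest on plate 1, at 36260 CPM in luminal GFP+ cells with *Bpifa2* at 26188 CPM, followed by plate 3 at 452 CPM in GFP+ and 523 CPM in GFP- cells. The cell with the highest salivary level held no read of any of the 3 genes. Without the 5 cells over 1000 CPM of these markers, a limit chosen after seeing the data, *Dclk1* was 201.3 CPM on average in luminal GFP+ and 11.3 CPM in luminal GFP- cells. The latter is a mean over 6 plates, since plate 3, which had the highest value, was left with fewer than 3 cells and dropped out.

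Over 30 sums of cells by plate and group, the level of *Dclk1* (log2(CPM + 1)) was most like that of *Casp12* (Pearson r = 0.784), *Rps2-ps9* (0.767, a pseudogene whose reads are uncertain), *Nhsl1* (0.735), *Mia* (0.713) and *Ranbp6* (0.709), out of 10969 genes. For *Nebl* the 5 were *Zw10* (0.71), *Rab5b* (0.687), *Ydjc* (0.675), *Atp10a* (0.671) and *Adcy9* (0.662). For *Sdc1* they were *Ss18* (0.819), *Krt17*, *Iffo2* and *Trim29* (0.772 each) and *Efna3* (0.765). *Dclk1* and *Nebl* had an r of 0.447 with each other, *Nebl* and *Sdc1* 0.472, and *Dclk1* and *Sdc1* 0.064. The sums share plates, mice and depth, and the values are descriptions. *Casp12*, the nearest to *Dclk1*, was 41.7 CPM in luminal GFP+ and 1.25 CPM in luminal GFP- cells. As these groups were among the sums and *Dclk1* was chosen on them, a difference of this direction is partly built in.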

How the data were processed

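Read counts per gene and cell were deposited by the authors without normalization. Per the labels and methods, they had trimmed reads with Trim Galore 0.6.5, aligned them to GRCm38 with STAR 2.7.7a and counted them with HTSeq 0.13.5, and had analysed them with Seurat 4.3.0.1 in R 4.3.0. The rows of the HTSeq summary (58.6% of all table entries) and spike-ins (ERCC, taking 8.31% in batch 1, 6.64% in batch 2 and 0.214% in batch 3 of what mapped to either) were set aside. Symbols were found for 37893 of 39154 identifiers.

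The 96 cells of a repeat run of plate 5 were left out. As in the study's methods, a kept cell had more than 100000 reads and 1400 genes, a mitochondrial share below 10%, 2 or more reads of *Epcam* and no more than 1 of *Dcpp1*. The study reports fewer cells after its own quality control, so the set of kept cells is not the same. Cells were sorted singly and no doublet caller was run. Cells of a plate share mice, so reads were summed per group and plate where at least 3 cells were kept. The authors' deposited gates and GFP calls were used, although an appendix of the study gives the numbers of luminal and intermediate GFP+ cells on plates 1 to 4 the other way round, and chase came from the plate descriptions. In some sample names luminal GFP- cells carry an ER label, which was not used.

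All genes were tested with the quasi-likelihood test of edgeR 4.0.16 (R 4.3.3) after its default filter and TMM scaling, with the plate as a block and Benjamini-Hochberg adjustment at 0.05. The pairing comes from the plate, whose groups share mice. The deviations of groups of the same plate from their group means correlated at 0.042 to 0.167 (luminal GFP+ with luminal GFP-) and 0.077 to 0.157 (luminal with basal GFP+). Named are the 3 genes, the 5 genes most correlated with each, 9 family members and the list genes called between luminal GFP+ and luminal GFP- or basal GFP+ cells. List genes called elsewhere were named after their values were seen. The 3 genes and all lists were chosen with earlier results of these data known. Alternatives were DESeq2 1.42.0, RLE scaling, no filter, no block, Cre line and chase as unit, all groups in one fit, other limits on *Dcpp1*, reads and cells, each plate left out, means of single cells and thinning. Removal of cells with over 1000 CPM of salivary markers was added after seeing the data. The tests were tried on simulated counts.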

Additional observations from a re-analysis of the deposited data

Results flagged for a closer look

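The level of *Dclk1* in basal GFP+ cells was 680.4 CPM on plate 3, apart from the other 4 plates of that group. In luminal GFP- cells plate 3 stood apart from the other 6 plates for 2 genes, with 120.2 CPM of *Dclk1* and 47.65 CPM of *Nebl*, and both came mainly from 1 of 3 cells. *Sdc1* in luminal GFP+ cells stood apart on plate L at 1545 CPM, of which 1 cell of 5 gave 79.1%. These are 4 values, from plates 3 and L, among 12 combinations of gene and group that were examined by Dixon's test at the 95% level, which by chance marks about 5% of such groups.

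The repeat run of the 6-week plate, which no comparison used, held the 3 genes in the same 37 luminal GFP+ cells at 229.9 CPM (*Dclk1*), 21.66 CPM (*Nebl*) and 225.2 CPM (*Sdc1*). The first run gave 232.8, 18.4 and 223.6 CPM. *Dclk1* had a read in 30 of these cells in the first run, 31 in the repeat and 29 in both. In the 7 luminal GFP- cells of that plate, where the first run had no read of *Dclk1* or *Nebl*, the repeat had 5 reads of *Dclk1* in 3 cells and 1 read of *Nebl*. The 2 runs are of the same wells and are not replicates.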

How the results depend on the processing

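Between luminal GFP+ and luminal GFP- cells all alternatives run kept all 3 genes higher. Without the plate as a replicate block the log2 fold changes fell from 4.87 to 2.80 (*Dclk1*), 5.33 to 2.97 (*Nebl*) and 2.20 to 1.35 (*Sdc1*), and leaving out each plate gave 4.09 to 5.76, 4.49 to 6.41 and 1.73 to 2.56. Between luminal and basal GFP+ cells the alternatives gave -0.27 to 0.67 for *Dclk1*, 1.12 to 1.76 for *Nebl* and 0.06 to 0.50 for *Sdc1*, and leaving out each plate gave -0.19 to 0.73, 0.95 to 2.26 and -0.39 to 0.66, so that *Dclk1* and *Sdc1* had no steady sign there. The share of tested genes called depended on the tool. For luminal GFP+ against luminal GFP-, luminal against basal GFP+, intermediate against basal GFP+, luminal against intermediate GFP+, luminal against basal GFP-, basal GFP+ against GFP- and intermediate GFP+ against GFP-, in this order, edgeR called 0%, 0.562%, 0%, 0%, 0.249%, 0% and 0.132%, DESeq2 called 2.14%, 11.3%, 0.486%, 6.67%, 12%, 1.38% and 1.37%, and edgeR without a filter called 0.281%, 3.08%, 0.0752%, 1.01%, 1.37%, 0.00449% and 0.398%. With all groups in one fit, luminal GFP+ against luminal GFP- gave 0.0303%, luminal against basal GFP+ 0.727%, luminal against intermediate GFP+ 0.152%, luminal against basal GFP- 1.51%, and basal and intermediate GFP+ against GFP- 0.00505% each. Without the replicate block luminal against basal GFP+ gave 1.07%, luminal against intermediate GFP+ 0.217%, luminal against basal GFP- 0.822% and intermediate GFP+ against GFP- 0%, and with RLE scaling the last gave 0%. With Cre line and chase as unit, luminal against basal gave 1.13% in GFP+ and 1.27% in GFP- cells. When only cells with over 100 *Dcpp1* reads were removed, luminal GFP+ cells gave 0.00875% against luminal GFP-, 2.01% against basal and 0.375% against intermediate GFP+ cells, and with at least 5 cells a group luminal against intermediate GFP+ gave 0.0628%. Leaving out each plate gave 0.0407% to 0.361% for luminal against basal GFP+, 0% to 0.0628% for luminal against intermediate GFP+ and 0% to 0.0486% for luminal against basal GFP-. The removal of cells with high salivary markers, added after seeing the data, moved no number of calls by over 1.5 times.

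Some differences turned sign, and the cause was not tested. For intermediate against basal GFP+, *Dclk1* became -0.57 and *Nebl* -0.80 with Cre line and chase as unit, *Nebl* -0.70 with all groups in one fit and -0.075 with the *Dcpp1* limit of 100, and leaving out plates gave -0.37 to 0.96 and -1.01 to 1.29. For luminal against intermediate GFP+, *Dclk1* became -0.24 and *Sdc1* 0.0942 without the block, -0.0413 and 0.0112 with the *Dcpp1* limit of 100, *Dclk1* -0.28 with at least 5 cells, and leaving out plates gave -0.28 to 0.50 and -0.59 to 0.56. For luminal against basal GFP-, *Sdc1* became 0.17 without the block and -1.43 to 0.37 on leaving out plates, while *Dclk1* (-4.97) was -5.19 with DESeq2 and -2.92 without the block. For basal GFP+ against GFP-, *Nebl* (-2.23 ± 2.16) became 0.19 without the block, *Dclk1* 1.49 and *Sdc1* -0.39 with Cre line and chase as unit, and *Dclk1* 0.39 and *Nebl* 1.55 with all groups in one fit. For intermediate GFP+ against GFP-, *Nebl* became -0.28 with all groups in one fit. The mean *Nebl* level of intermediate GFP- cells was 38.8 CPM as a mean of single cells, and thinning lowered the share of intermediate GFP+ cells with *Nebl* to 60.99%. The 3 to 7 luminal GFP- cells of a plate, and the lower depth of batches 1 and 2, limit what a read count of 0 can show.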
